A study of Mus musculus with 2 samples.

Results

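The genes described here were 10 genes of the lamellar bodies and the secretory output of alveolar type II (AT2) cells, out of 32285 genes counted in both sections. They were taken by symbol: Abca3, Lamp3, Slc34a2, Napsa, Lpcat1, Ctsh, Lyz1, Lyz2, Chil1 and Cxcl15. All 10 were listed in both sections, and none was left out by a filter. AT2 cells make pulmonary surfactant, load its lipids and the processed surfactant proteins into lamellar bodies, which are lysosome-related organelles, and secrete the content onto the alveolar surface together with antimicrobial proteins. Some of the genes are not restricted to this cell type in mouse lung. Lyz2 is in wide use as a marker of macrophages, monocytes and neutrophils, and Lamp3 also marks mature dendritic cells.

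Spatial transcriptomics with Visium, which counts RNA molecules in spots laid out at a pitch of 100 µm, was available for 1 control lung and 1 metastatic lung. The metastatic lung was fresh-frozen and came from the mammary fat pad model, in which female Balb/c mice of 6 to 8 weeks received 1000000 cells of 4T1, a mouse mammary carcinoma line, and were killed 21 to 23 days later. The control lung was labelled as having had no treatment, and the age, sex and strain of its mouse were not given in the sources used here. A spot holds several cells of different types, spots of 1 section are not replicates, and with 1 section per condition no p-value can be given. All intervals below are 95% intervals and cover counting error only, so the tumor cannot be told apart from what else set the 2 animals or the 2 libraries apart. The comparisons asked how much of each gene was found in each section, and whether its level over spots followed AT2 content (Sftpc, which encodes surfactant protein C) or macrophage content (C1qa and Cd68 summed, a complement subunit and a lysosomal glycoprotein of macrophages).

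The control section held 1888 spots and 20329126 counts (median 9643.5 per spot), and the metastatic section 1110 spots and 14657881 counts (median 11334.5 per spot). Of the spot barcodes, 858 occurred in both sections. Scgb1a1, the secretoglobin of airway club cells, took 15.2% of the control and 18.4% of the metastatic counts. Levels are summed counts per 10000 summed counts (CP10k). Sftpc, the AT2 reference, was detected in 99.9% of the spots of either section, so its presence alone marked no AT2-rich spot, and its level was 242 CP10k (241 to 242) in the control and 129 CP10k (128 to 129) in the metastatic section, a ratio of 0.532 (0.529 to 0.535). The control section also held cardiac muscle, whose listed genes summed to 35.3 CP10k there and 0.476 CP10k in the metastatic section. The 50 control spots richest in these genes still had 155 CP10k of Sftpc. C1qa was 3.06-fold (2.88 to 3.25) and Cd68 2.05-fold (1.83 to 2.3) higher in the metastatic section. In bulk spots, fewer cells of a type and less RNA per cell cannot be told apart.

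Lyz1 and Lyz2, on which most of the contrast below turns, are neighbouring copies on the minus strand of chromosome 10. In GRCm38.p6, Lyz2 lay at chr10:117277541-117282272 and Lyz1 at chr10:117287795-117292868, with 5522 bases between them. The stretches next to their start sites are shown because the pair differed in its pattern over the tissue in spite of this likeness. They are RefSeq sequence of GRCm38.p6, given 5′ to 3′ on the minus strand, and end at the base before the start of the gene (chr10:117292869-117293008 for Lyz1 and chr10:117282273-117282412 for Lyz2). Capitals mark the 13 of 140 bases at which they differ.
Lyz1: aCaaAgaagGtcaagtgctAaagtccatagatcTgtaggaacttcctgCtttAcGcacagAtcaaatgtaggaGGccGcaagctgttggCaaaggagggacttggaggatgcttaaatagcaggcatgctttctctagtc
Lyz2: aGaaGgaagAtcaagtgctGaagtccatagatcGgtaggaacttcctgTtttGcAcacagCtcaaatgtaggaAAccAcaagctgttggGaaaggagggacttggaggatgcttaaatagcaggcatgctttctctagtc
The last 50 bases were identical. Over 250 bases before the start the 2 promoters were 80.6% identical, with 4 bases opposite a gap. The NKX2-1 motif CAAGTG, searched on both strands of these 250 bases, was found in Lyz1 and Lyz2 among the 8 members with a promoter in the RefSeq table, and in 11.6% of all 32851 promoters. The C/EBP motif TTGCNNAA was found in Lyz1 and Slc34a2 (9.56% of all promoters), and the PU.1 motif GAGGAA in none of the 8 (23.3% of all promoters). Such a match describes letters in a window and is not a binding site. The transcripts of the 2 lysozyme genes were 96.0% identical over 1262 aligned bases, so their reads could be shared in part. Of the 1174 windows of 90 bases, the length of the cDNA read, in the Lyz1 transcript, 44 occurred unchanged in Lyz2, and the median window differed by 4 bases from its best match. In the last 500 bases, where 3′ reads fall, 15 of 411 windows were shared and the median difference was 5 bases. Within 2 mismatches of the other gene lay 33.7% of the Lyz1 windows, and 39.9% of those in the last 500 bases.

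The genes of the lamellar body membrane and of surfactant processing were lower in the metastatic section. Abca3 (chr17:24351921-24410204), the transporter that moves phospholipids into lamellar bodies, was at 4.09 CP10k (4.01 to 4.18) in the control and 2.63 CP10k (2.55 to 2.72) in the metastatic section, a ratio of 0.643 (0.619 to 0.668). Lpcat1 (chr13:73467231-73516420), an acyltransferase that makes the saturated phosphatidylcholine of surfactant, was at 3.25 and 2.12 CP10k, a ratio of 0.652 (0.624 to 0.680). Slc34a2 (chr5:53049353-53071664), the sodium-dependent phosphate transporter of the AT2 cell surface, was at 8.42 CP10k (8.30 to 8.55) in the control and 5.83 CP10k (5.70 to 5.95) in the metastatic section, a ratio of 0.691 (0.674 to 0.710). The values of single spots overlapped between the sections. For Slc34a2 the spots of the control section ran from 0 over a median of 8.82 to 41.2 CP10k, and those of the metastatic section from 0 over 6.42 to 33.6 CP10k.

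Both proteases of surfactant protein processing had nearly the same ratio. Ctsh (chr9:90054267-90076095), cathepsin H, was at 5.01 CP10k in the control and 3.67 CP10k in the metastatic section, a ratio of 0.733 (0.709 to 0.758). Napsa (chr7:44572445-44586846), the aspartic protease napsin A, was at 1.58 and 1.16 CP10k, a ratio of 0.737 (0.695 to 0.782). Lamp3 (chr16:19653381-19706365), a glycoprotein of the lamellar body membrane, had the ratio nearest to 1 of the 8 genes with a lower level, with 1.61 CP10k in the control, 1.40 CP10k in the metastatic section and a ratio of 0.867 (0.820 to 0.916). In metastatic spots over 500 µm from the proliferative core described below its ratio to the control was 0.945 (0.886 to 1.01). The mature dendritic cell list, which holds 6 genes beside Lamp3, stood at 1.22 and 1.42 CP10k. Of its 6 genes, 3 were at least 1.5-fold higher in the metastatic section and none was at 0. Of the 13792 genes with at least 50 counts in both sections together, 8.96% were that much higher. The part of mature dendritic cells in the Lamp3 level was not tested.

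The secreted proteins divided. Cxcl15 (chr5:90794534-90803067), the lung chemokine lungkine, was at 8.17 CP10k in the control and 5.86 CP10k in the metastatic section, a ratio of 0.717 (0.698 to 0.736). Lyz1 was at 22.8 CP10k (22.6 to 23.0) in the control and 11.5 CP10k (11.3 to 11.7) in the metastatic section, and its ratio of 0.505 (0.496 to 0.514) was the lowest of the 10 genes. Single spots ran from 0 over a median of 20.9 to 129 CP10k in the control and from 0 over 12.1 to 93.2 CP10k in the metastatic section, so spots overlapped while the pooled levels stood about as far apart as those of Sftpc.

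Lyz2 was not lower. Its level was 27.4 CP10k (27.2 to 27.6) in the control and 31.3 CP10k (31.0 to 31.6) in the metastatic section, a ratio of 1.14 (1.13 to 1.16). Single spots ran from 0 over a median of 26.1 to 193 CP10k in the control and from 0 over 31.2 to 171 CP10k in the metastatic section. In metastatic spots over 500 µm from the core, Lyz2 was at 26.5 CP10k, a ratio of 0.967 (0.952 to 0.982) to the control. Chil1 (chr1:134182156-134190031), which encodes a secreted chitinase-like protein, was sparse. It was at 0.534 CP10k (0.502 to 0.566) in the control and 0.822 CP10k (0.776 to 0.870) in the metastatic section, a ratio of 1.54 (1.42 to 1.67), or 1.34 (1.21 to 1.47) in spots over 500 µm from the core. A count of Chil1 was present in 36.5% of control and 55.2% of metastatic spots. After thinning to 5000 counts per spot it was present in 23.1% of 1526 control and 33.5% of 1028 metastatic spots. Thinning left out 362 control and 82 metastatic spots with fewer counts.

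**Figure D1:**
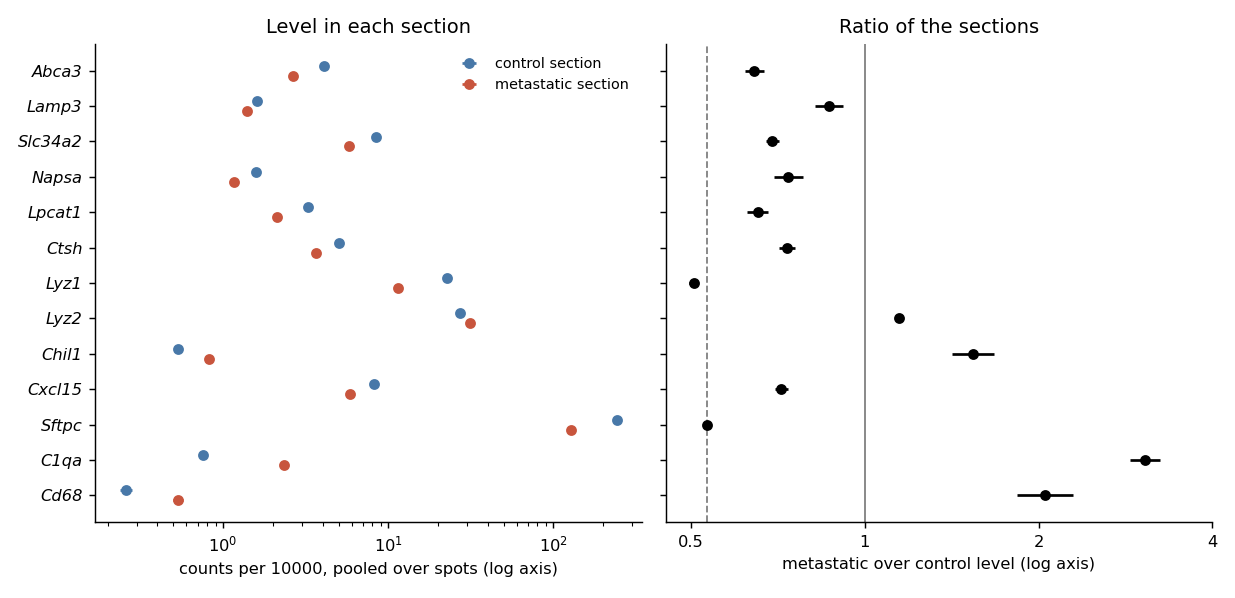
Left, pooled level of the 10 genes and of Sftpc, C1qa and Cd68 in the control (blue) and metastatic (red) section, in counts per 10000 on a log axis. Right, metastatic over control level on a log axis, with the solid line at 1 and the dashed line at the ratio of Sftpc (0.532), and bars for the 95% counting intervals in both panels. Lyz2 and Chil1 are the only 2 of the 10 genes to the right of 1, and Lyz1 alone lies to the left of Sftpc.

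Of the 10 genes, 3 were at least 1.5-fold lower in the metastatic section (Abca3, Lpcat1 and Lyz1), 1 was at least 1.5-fold higher (Chil1) and 6 lay between. Among the 13792 genes with at least 50 counts in both sections together, 11.8% were at least 1.5-fold lower and 8.96% at least 1.5-fold higher. The median ratio was 0.725 over the 10 genes and 0.952 over those 13792 genes. Set against Sftpc counts, which needs no library size, 9 of the 10 genes were higher in the metastatic section, as were 95% of the 13792 genes, whose median ratio on this scale was 1.79. Lyz2 and Chil1 were the members above that median. Lyz1 gave 9.42 counts per 100 Sftpc counts in the control and 8.94 in the metastatic section, a ratio of 0.949. Lyz2 gave 11.3 and 24.4 counts per 100 Sftpc counts, a ratio of 2.15, and Chil1 0.221 and 0.640, a ratio of 2.90. For the other 7 genes this ratio lay between 1.21 (Abca3) and 1.63 (Lamp3), and the other surfactant protein genes Sftpb, Sftpd and Sftpa1 had ratios of 1.21, 1.25 and 1.59, so Sftpc itself was among the lowest of these AT2 genes.

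In the control section the correlation with Sftpc over spots was weak for Chil1 alone. Pooled by tertile of Sftpc, however, Chil1 was 2.06-fold (1.78 to 2.38) higher in the highest tertile than in the lowest. Cxcl15 was 2.22-fold and Abca3 2.47-fold higher. The Spearman correlation with Sftpc over 1888 spots was 0.76 for Lyz1, 0.72 for Lyz2, 0.69 for Slc34a2, 0.55 for Cxcl15 and 0.52 for Lpcat1. It was 0.48 for Ctsh, 0.47 for Abca3, 0.46 for Lamp3 and 0.45 for Napsa, and 0.15 for Chil1. These values describe spots that share 1 library and its depth, and a sparse gene cannot reach a high value. Counting error was 88.4% of the variance over spots for Chil1 and 81.3% for Lamp3, but 10.8% for Lyz1 and 12.9% for Lyz2. The values of 9 members were at least 0.2, as were those of 33.9% of the 2069 genes with at least 1000 counts in each section, and Lyz1, Lyz2 and Slc34a2 held places 2, 3 and 4 among these genes, after Sftpc itself. With the macrophage reference the values ran from -0.06 (Ctsh) to 0.11 (Lyz2), and 0 of 10 members reached 0.2 (1.3% of the 2069 genes). Without abundant genes in the library size, the correlation with Sftpc was 0.32 for Ctsh, 0.31 for Abca3 and 0.43 for Cxcl15. In alveolar spots, those not above the 90th percentile of the airway or cardiac list, it was 0.32, 0.35 and 0.50. There Lpcat1 had 0.37 and Slc34a2 0.56. Lyz1 and Lyz2 had 0.73 and 0.68 in the former setting and 0.66 and 0.63 in the latter.

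In the metastatic section, 9 of 10 members again had a correlation with Sftpc of at least 0.2 (28.3% of the 2069 genes), the exception being Chil1. With the macrophage reference, 2 of 10 members, Lyz2 and Chil1, reached 0.2 (25.6% of the genes). Lyz1 had a correlation of 0.74 with Sftpc and -0.08 with the macrophage reference over 1110 spots. Slc34a2, with 0.74 and -0.10, lay beside it. Lyz2 had 0.48 with Sftpc and 0.38 with the macrophage reference. With the other reference held fixed, the partial correlation of Lyz2 was 0.59 with Sftpc and 0.52 with the macrophage reference, against 0.74 and 0.05 for Lyz1. In the control section these partial values were 0.72 and 0.16 for Lyz2 and 0.77 and 0.05 for Lyz1. Lyz2 thus followed both references in the metastatic section and mainly Sftpc in the control section. The macrophage reference was sparse in the control section, with 921 of 1888 spots holding none of its counts (235 of 1110 in the metastatic section). With a wider list of 12 macrophage and monocyte genes, Lyz2 had 0.23 in the control and 0.49 in the metastatic section, and Lyz1 0.13 and -0.02.

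Of the remaining members, all but Chil1 had a higher correlation with Sftpc than with the macrophage reference. In the metastatic section Sftpc itself had 0.70 with the endothelial list and 0.65 with the list of alveolar type I cells. In the control section these values were 0.48 and 0.47, and Sftpc had -0.48 with the club and ciliated list. A correlation with Sftpc in either section does not separate AT2 content from alveolar tissue at large. Beyond 500 µm from the core, Abca3 had 0.27 and Cxcl15 0.28 with Sftpc, and the others but Chil1 from 0.41 (Napsa) to 0.48 (Lamp3). In the metastatic section Lamp3 had a correlation of 0.54 with Sftpc, Lpcat1 0.52, Ctsh 0.49, Napsa 0.46, Cxcl15 0.39 and Abca3 0.37, and their values with the macrophage reference lay between -0.15 (Cxcl15) and 0.04 (Napsa). Chil1 had 0.17 with Sftpc and 0.21 with the macrophage reference, and was the only member with the higher value for macrophages. Over all spots, Lyz1 and Lyz2 had a correlation of 0.57 with each other in the control and 0.35 in the metastatic section. Neighbouring spots shared the level of Lyz2 (0.56 in the control and 0.66 in the metastatic section, each spot against the mean of its neighbours) and of Lyz1 (0.60 and 0.59) more than that of Chil1 (0.17 and 0.27).

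**Figure D2:**
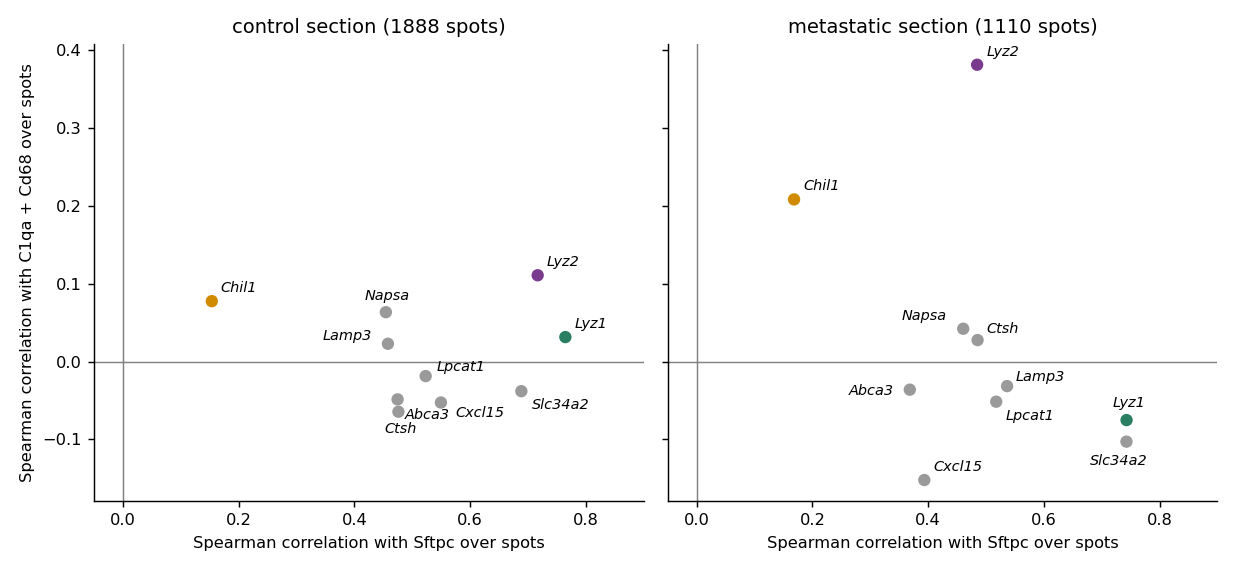
Spearman correlation over spots of each of the 10 genes with Sftpc (horizontal axis) and with C1qa and Cd68 summed (vertical axis), in the control section (left, 1888 spots) and the metastatic section (right, 1110 spots). Each point is a gene. In the metastatic section Lyz2 (0.48 and 0.38) and Chil1 (0.17 and 0.21) stand above the other 8, which lie at 0.04 or below on the vertical axis.

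The genes whose level over spots was most like each member, averaged over both sections and taken from the 2069 genes, were mostly other AT2 genes. Sftpc came first for Lamp3, Slc34a2, Napsa, Lpcat1, Lyz1, Lyz2 and Cxcl15, with mean Spearman correlations from 0.46 (Napsa) to 0.75 (Lyz1). Sftpb, which encodes surfactant protein B, came first for Abca3 (0.43), and Slc34a2 for Ctsh (0.52). For Chil1 the first were Lyz2 (0.24), Lrg1 (0.21) and Npc2 (0.21), which encode a lysozyme, a secreted leucine-rich glycoprotein and a lysosomal sterol-binding protein. The third gene for Lyz2 was Tmsb4x (0.48), an actin-binding peptide found in many cell types, whereas the first 3 for Lyz1 were Sftpc, Sftpb and Slc34a2.

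Pooling spots by tertile gave the same contrast on the scale of levels. In the metastatic section the spots in the highest tertile of the macrophage reference had 45.7 CP10k of Lyz2 and those in the lowest 19.9 CP10k, a ratio of 2.3 (2.24 to 2.35). Lyz1 was at 10.6 and 10.4 CP10k in the same spots, a ratio of 1.02 (0.985 to 1.06). The reverse held along Sftpc, where the highest over the lowest tertile was 5.56 (5.32 to 5.82) for Lyz1 and 2.10 (2.06 to 2.15) for Lyz2. Where Sftpc was lowest, Lyz2 went from 7.74 CP10k in the 111 spots of the lowest macrophage tertile over 18.8 CP10k in the middle one (104 spots) to 36.6 CP10k in the highest (155 spots), a ratio of 4.73. Lyz1 stood at 3.19, 4.97 and 3.60 CP10k in these spots. Where Sftpc was highest, the ratio over macrophage tertiles was 1.45 for Lyz2 and 0.983 for Lyz1. Airway content was not held fixed in these classes. Over the metastatic spots the club and ciliated list had a correlation of -0.45 with C1qa, -0.27 with Cd68 and -0.40 with Lyz2. It stood at 32.4 CP10k in the core and 2404 CP10k beyond 500 µm. The part of airway content in the gradient of Lyz2 was not tested.

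Over all metastatic spots, the other members had at most a weak gradient along the macrophage reference, with 2 exceptions. Chil1 was at 1.20 CP10k in the highest and 0.547 CP10k in the lowest macrophage tertile, a ratio of 2.19 (1.90 to 2.54). The ratio was 1.60 even where Sftpc was highest. Over Sftpc tertiles the ratio of Chil1 was 2.05 (1.78 to 2.37), so it rose along both references. Cxcl15 ran the other way along the macrophage reference, at 4.91 and 6.68 CP10k, a ratio of 0.736 (0.698 to 0.776). This came from the spots lowest in Sftpc, where it was 0.381. Cxcl15 had a correlation of 0.16 with the club and ciliated list, and airway content was not held fixed there. For the other 6 members the ratio over macrophage tertiles lay between 0.911 (Abca3) and 1.24 (Napsa, 1.10 to 1.40). Their ratio over Sftpc tertiles lay between 1.96 (Abca3) and 5.02 (Lamp3). In the spots lowest in Sftpc their macrophage ratios spread further, from 0.661 (Abca3) to 1.53 (Lpcat1). They ran from 0.951 (Slc34a2) to 1.48 (Napsa) in the middle Sftpc tertile and from 0.922 (Lpcat1) to 1.08 (Lamp3) in the highest. In the control section the ratio over macrophage tertiles was 1.31 (1.28 to 1.34) for Lyz2, 1.21 (1.18 to 1.24) for Lyz1 and 1.34 (1.14 to 1.57) for Chil1. In the control spots lowest in Sftpc it was 1.90 for Lyz2 and 1.33 for Lyz1. Where Sftpc was highest it was 1.13 for both. Since 921 control spots held no count of the reference, the lowest tertile and part of the middle one there were both at 0 and were divided by spot order alone.

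**Figure D3:**
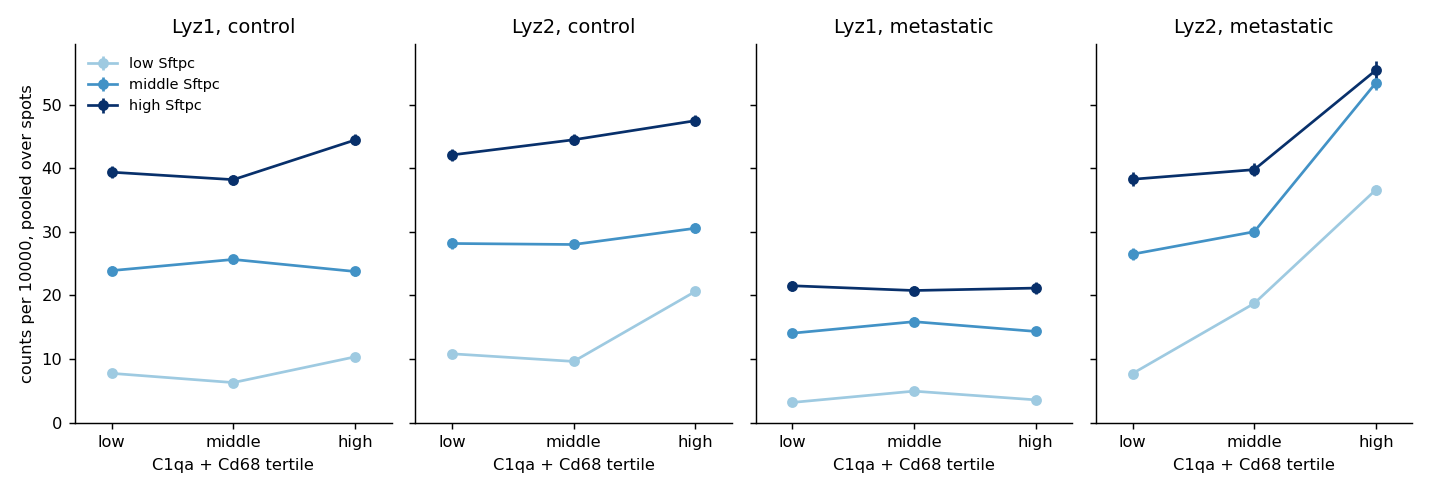
Level of Lyz1 and Lyz2, in counts per 10000 pooled over spots, by tertile of C1qa and Cd68 summed (horizontal axis) and tertile of Sftpc (colour, light to dark), in the control and metastatic sections. Bars are 95% counting intervals. The Lyz1 lines of the metastatic section are nearly flat and set apart by Sftpc. Lyz2 there climbs over the macrophage tertiles, from 7.74 to 36.6 in the spots lowest in Sftpc. Airway content was not held fixed.

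The number of Lyz2 counts per Lyz1 count, which is free of library size, was 1.20 (1.19 to 1.22) in the control section and 2.73 (2.68 to 2.78) in the metastatic section. Among spots with at least 20 counts of the pair, the share of Lyz2 had a median of 54.7% over 1407 control spots and 72.1% over 965 metastatic spots. Lyz2 outnumbered Lyz1 in 887 of the former and 878 of the latter. In the metastatic section the ratio was 10.2 (9.47 to 10.9) in spots lowest in Sftpc and highest in macrophage reference, and 1.78 (1.70 to 1.86) in spots highest in Sftpc and lowest in macrophage reference. The control value in the latter class was 1.07 (1.03 to 1.11). Tertiles were cut within each section, so these 2 classes were not matched. The control class held 402 CP10k of Sftpc and 0 CP10k of the macrophage reference, and the metastatic class 253 and 0.327 CP10k. Control spots of the middle Sftpc and lowest macrophage tertile, at 268 and 0 CP10k, had a ratio of 1.18 (1.13 to 1.23).

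The lists of other myeloid markers did not all move with Lyz2. The macrophage and monocyte list stood at 9.69 CP10k in the control and 17.1 CP10k in the metastatic section, with 9 of 12 genes at least 1.5-fold higher and none lower. The neutrophil list stood at 2.27 and 21.2 CP10k, with 8 of 8 genes at least 1.5-fold higher. The alveolar macrophage list stood at 2.94 and 2.50 CP10k, with 2 of 9 genes higher and 4 lower. No gene of these 3 lists was at 0 in either section. Over all 13792 genes, 8.96% were at least 1.5-fold higher and 11.8% at least 1.5-fold lower. Over the metastatic spots Lyz2 had a correlation of 0.49 with the macrophage and monocyte list, 0.35 with the alveolar macrophage list and 0.17 with the neutrophil list. Lyz1 had -0.02, 0.17 and 0.51, and Sftpc itself -0.07, 0.18 and 0.56. The neutrophil list stood at 25.1 CP10k in the lung over 500 µm from the core and 15.0 CP10k in the 200 µm around it. The part of each cell type in the Lyz2 level was not tested.

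The lesions were located by clustering the metastatic spots on genes other than the members and references. The cluster with the highest Mki67 and Top2a, genes of dividing cells, at 2.53 CP10k against 1.65 CP10k in the next cluster, was taken as the proliferative core. It held 127 spots, 102 of them in 1 connected group and 22 in another. Of the markers listed for 4T1 cells it had the highest Krt8, Krt18, Hmga2 and Ccnd1 of all clusters (2.18, 1.61, 0.169 and 2.49 CP10k), while Krt14, Krt5 and Prl2c2 were at 0 there, so it is named by its proliferation genes. Sftpc was at 29.7 CP10k in the core, 135 CP10k within 200 µm of it, 146 CP10k from over 200 to 500 µm and 147 CP10k beyond.

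Lyz2 was highest at the border of the core. It was at 35.2 CP10k (34.4 to 36.0) in the core, 64.9 CP10k (63.1 to 66.9) in the 54 spots next to it, 43.5 CP10k (42.0 to 45.0) in the 53 spots up to 200 µm, and 26.5 CP10k (26.1 to 26.8) in the 684 spots beyond 500 µm. Lyz1 was at 3.25 CP10k (3.01 to 3.50) in the core, 13.7, 14.4 and 12.6 CP10k in the same zones. Lyz2 counts per Lyz1 count were accordingly 10.8 (10.0 to 11.7) in the core, 3.81 (3.63 to 4.00) within 200 µm, 2.42 from over 200 to 500 µm and 2.10 (2.05 to 2.15) beyond. Chil1 was at 0.771 CP10k in the core, 1.89 CP10k in the spots next to it and 0.713 CP10k beyond 500 µm. The macrophage reference stood at 6.31 CP10k in the core, 6.27 CP10k next to it and 1.76 CP10k beyond 500 µm, so the core and its border held about as much of it, whereas Lyz2 and Chil1 were higher at the border.

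**Figure D4:**
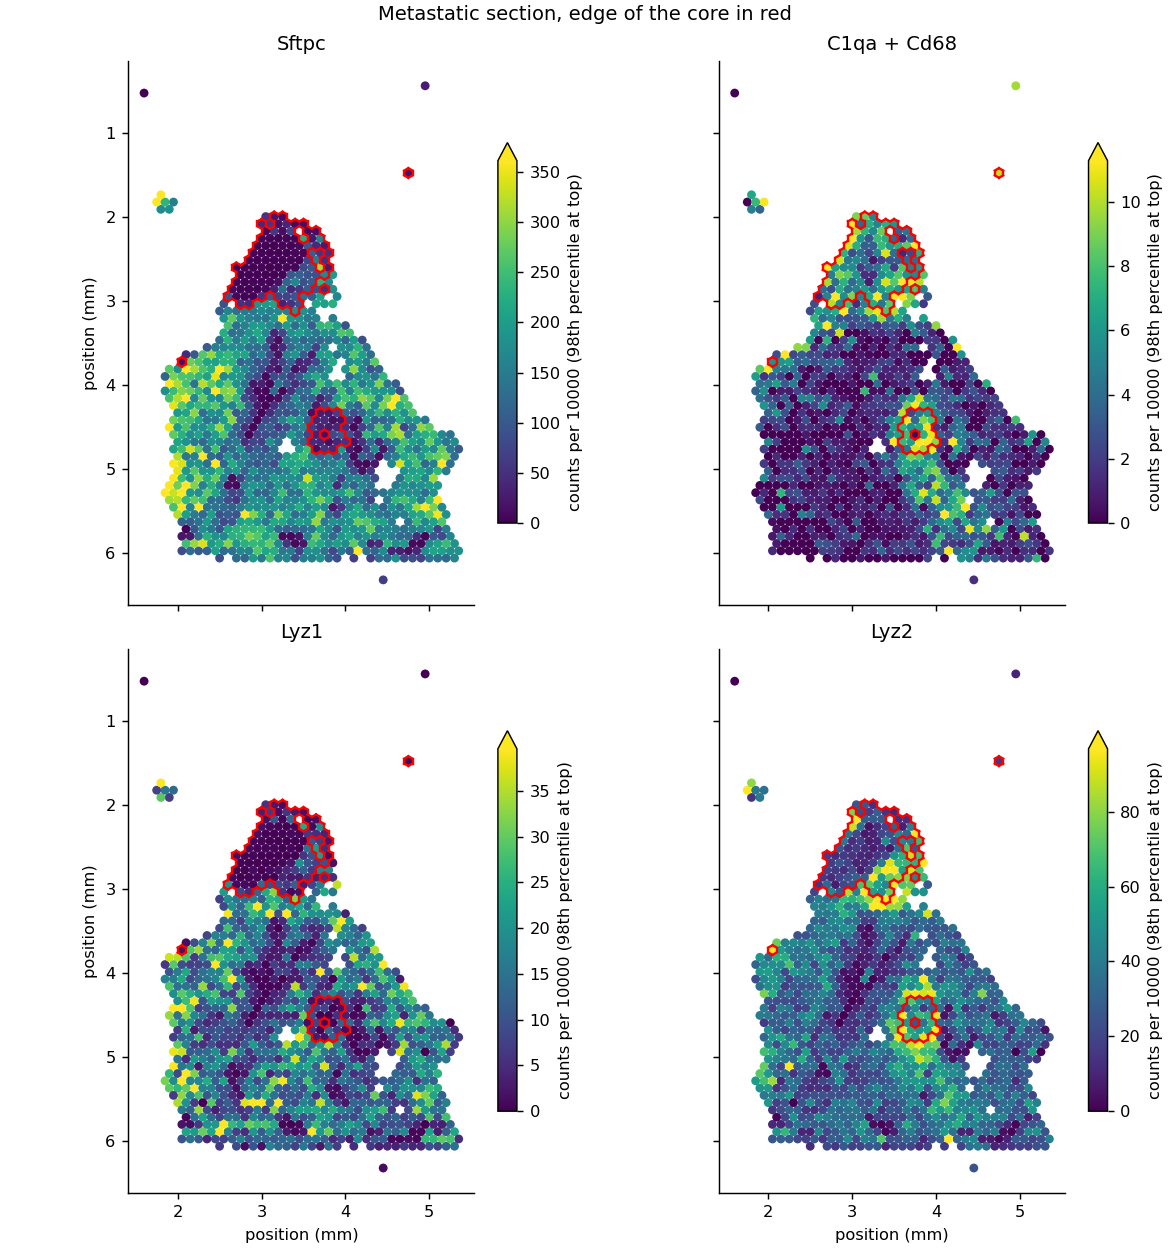
Spots of the metastatic section coloured by the level of Sftpc, C1qa and Cd68 summed, Lyz1 and Lyz2 in counts per 10000, each scale ending at the 98th percentile, with axes in mm and the edge of the proliferative core in red. Lyz1 is low over most of the core, as Sftpc is, while bright Lyz2 spots ring the smaller lesion and lie at the lower right of the larger one, on both sides of its edge.

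Within 200 µm of the core, 2 of 10 members (Lyz2 and Chil1) were at least 1.5-fold higher than beyond 500 µm and 0 were at least 1.5-fold lower, where 25.3% and 8.54% of 11189 genes were. Lyz2 had a ratio of 2.03 (1.97 to 2.08) and Chil1 of 2.05 (1.74 to 2.39). The median ratio of all those genes was 1.20, as was that of the 10 members, and the 2 zones differed in abundant genes, with 103 and 563 CP10k of the red blood cell list and 1400 and 2404 CP10k of the club and ciliated list. The other 8 members had ratios between 1.10 (Abca3 and Lpcat1) and 1.35 (Cxcl15), with 1.12 for Lyz1, but lay on both sides of 1 (0.90 for Abca3, 0.916 for Lyz1, 1.11 for Cxcl15) when abundant genes were left out of the library size, where Lyz2 had 1.66 and Chil1 1.68. Around the larger lesion alone Chil1 had a ratio of 3.14 and around the smaller one 1.13, while Lyz2 had 2.26 and 1.64.

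In the core, 8 of 10 members were at least 1.5-fold lower than beyond 500 µm and 0 at least 1.5-fold higher (23.9% and 36.8% of 11442 genes). The ratio was 0.216 for Slc34a2, 0.258 for Lyz1, 0.259 for Lamp3, 0.314 for Cxcl15, 0.323 for Napsa, 0.402 for Abca3, 0.445 for Lpcat1 and 0.495 for Ctsh, beside 0.202 for Sftpc. Lyz2 (1.33, 1.3 to 1.36) and Chil1 (1.08, 0.905 to 1.29) were the exceptions. Over the 127 core spots, Lyz2 had a partial correlation of 0.69 with Sftpc and Lyz1 of 0.74. With the macrophage reference, the partial correlation of Lyz2 was 0.41 in the core, 0.55 over the 107 spots within 200 µm, 0.39 over the 192 spots from over 200 to 500 µm and 0.31 over the 684 spots beyond. That of Lyz1 was 0.16, 0.02, 0.19 and 0.02 in the same zones.

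**Figure D5:**
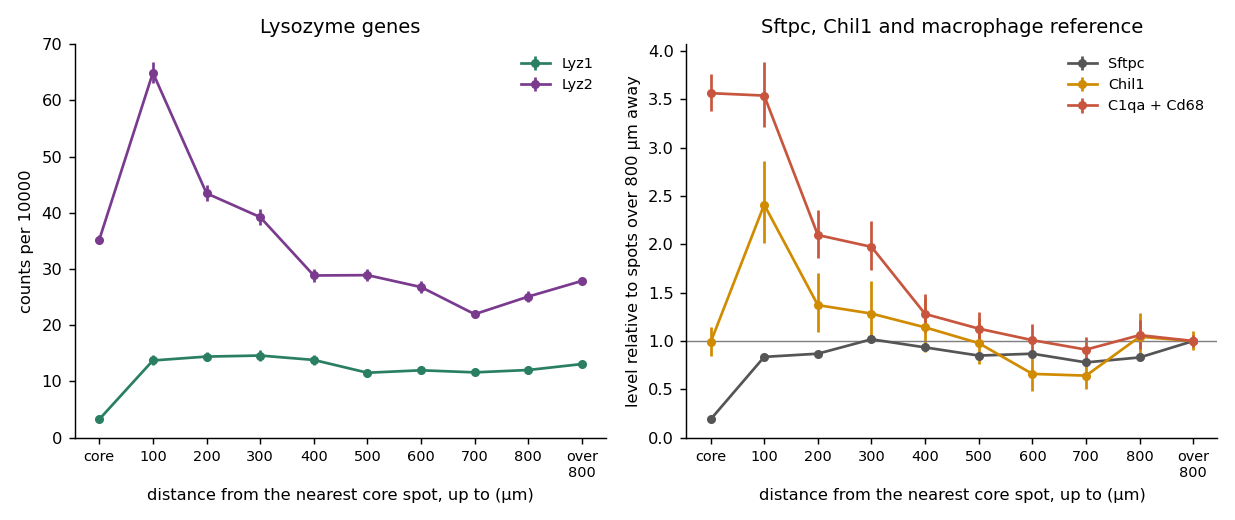
Level by distance from the nearest core spot, in steps of 100 µm with all spots beyond 800 µm in the last. Left, Lyz1 and Lyz2 in counts per 10000, where Lyz2 reaches 64.9 next to the core and Lyz1 13.7. Right, Sftpc, Chil1 and C1qa and Cd68 summed, relative to the last step. Bars are 95% counting intervals.

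Genes of neighbouring pathways were counted from lists in the same way, beside 11.8% lower and 8.96% higher over all 13792 genes. Of 16 genes of surfactant lipid synthesis, 5 were at least 1.5-fold lower in the metastatic section and 0 higher, with a median ratio of 0.781. The 5 included Fasn, the fatty acid synthase (0.629), Gpam, which starts glycerolipid synthesis (0.615), Elovl1, a fatty acid elongase (0.640), and Dgat2, which makes triglyceride (0.299). The highest ratios of this list were those of Srebf1 (1.31, 1.19 to 1.45) and Fabp5 (1.28, 1.22 to 1.34). Of 16 genes of lamellar body biogenesis and traffic, 1 was higher (Rab32, a small GTPase of lysosome-related organelles, 2.40, from 55 control and 95 metastatic counts) and 0 lower, with a median ratio of 1.01. Of 17 genes of AT2 identity and receptors, 5 were lower, among them Nkx2-1, the lung transcription factor (0.645), and Lgi3 (0.539), and 1 was higher, Rasgrf1, from 16 control and 34 metastatic counts.

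Of 20 general lysosome genes, which encode enzymes and membrane proteins of lysosomes, 4 were at least 1.5-fold higher and 0 lower, with a median ratio of 1.22. The 4 were the cathepsins Ctss (3.54), Ctsl (1.69) and Ctsb (1.5) and the tetraspanin Cd63 (1.67). Over the metastatic spots their correlations with the macrophage reference were 0.51, 0.43, 0.51 and 0.51, and those with Sftpc were -0.16, -0.09, -0.05 and -0.22. Among the 16 with at least 1000 counts in each section, 13 had a Spearman correlation of at least 0.2 with the macrophage reference in the metastatic section and 0 in the control section (25.6% and 1.3% of all genes), and their median was 0.36 and 0.09. In the same metastatic spots, Ctsh and Napsa, the proteases of the lamellar body, had 0.03 and 0.04.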

How the data were processed

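The deposited files held raw counts of RNA molecules per gene and spot, which the authors made with Space Ranger 1.3.1 on mm10 according to the submitters' processing notes, for 1 control and 1 metastatic lung section. All spots over tissue were used. Counts were pooled over spots and given per 10000 with exact Poisson intervals, and each ratio with an exact binomial interval for how its counts divided between both sides (95%, counting error only). Correlations were Spearman's over spots. The references, Sftpc and the sum of C1qa and Cd68, also defined tertiles, with ties broken by spot order. A call was a 1.5-fold ratio, over genes with at least 50 counts in both sections together. Correlations of all genes used those with at least 1000 counts in each section. Metastatic spots were clustered by k-means (5 clusters, 2000 variable genes, 20 principal components). The rule first written for the core, the cluster highest in the 4T1 list, picked airway spots, so the cluster highest in Mki67 and Top2a was used instead, a choice made after seeing the data. Alternatives covered library size, depth, spots, references and core. The genes named were the 10 members, the references, the 3 most similar genes per member and list markers beside a result; the pathway genes and Mki67 and Top2a were named after their values were seen. The members and lists were chosen with earlier results of these data known. Gene positions came from GRCm38.p6. Scripts were tested on simulated data and used scikit-learn 1.9.0, biopython 1.88, pandas 2.3.3, matplotlib 3.10.9, scipy 1.17.1 and numpy 2.4.6 under Python 3.11.15.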

Additional observations from a re-analysis of the deposited data

How the results depend on the processing

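No paired analysis was possible because each condition had 1 section. Of the alternatives computed for the main results, 88 values stayed within the limits set (the counting interval, a change of 0.1 in a correlation, a 1.5-fold change in a count), 28 moved further, and 1 reversed, meaning that a ratio of at least 1.5-fold crossed 1. Among those that moved, ratios nearer to 1 also crossed it, that of Lyz2 between the sections under 1 alternative and that of Lyz1 around the core under 3. The metastatic over control ratio of Lyz1 was 0.598 in alveolar spots, 0.561 as a mean of per-spot levels, 0.538 after thinning to 5000 counts and 0.554 in spots over 500 µm from the core. That of Lyz2 was 1.06, 1.21, 1.18 and 0.967 in the same order, so its direction did not hold far from the core. In those far spots 1 member was at least 1.5-fold lower and 0 were higher, and with a 2-fold call there were 0 lower and 0 higher. The share of all genes was not computed for these settings, so these counts cannot be set against it. In alveolar spots the partial correlation of Lyz1 with Sftpc was 0.66 in the control and 0.56 in the metastatic section, and that of Lyz2 with the macrophage reference in the metastatic section was 0.34, or 0.31 far from the core. Lyz2 counts per Lyz1 count were 1.18 and 2.09 in alveolar spots and 1.17 and 2.56 after thinning, in the control and metastatic section. For the 200 µm around the core over far lung, Lyz1 was 0.916 and Lyz2 1.66 without abundant genes in the library size, 0.576 and 1.81 around the inner core, 0.830 and 1.64 around the smaller lesion, and Lyz2 was 2.26 around the larger. With the airway cluster that the first rule picked, Lyz1 was 1.45, while Lyz2 (0.930) and Chil1 (0.785), a single gene outside those counts, reversed. A core drawn at a level of the 4T1 list left 2 far spots and gave no value. Counting error was 63.4% (Chil1), 69.7% (Lamp3) and 89.5% (Abca3) of the variance over metastatic spots, against 8.44% for Lyz2.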
